A study of Mus musculus with 4 samples.

Results

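The enzymes that make nucleotides, and the folate enzymes that hand them carbon units, were followed in mouse regulatory T cells (Treg, the Foxp3-positive CD4 T cells that restrain immune responses) after death receptor 3 (DR3) had been stimulated in the animal. The list held 34 genes, chosen by name from the pathway with earlier results of these data known. Of these, 32 had a probe set annotated to that gene alone, out of 22180 genes with such a probe set on the array, and the brightest probe set stood for each gene. Pfas and Impdh2 had none and were not analysed here. Of the 32, 31 lay above the median of the array on all 4 arrays and were tested. The dim one was Nme1.

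There were 2 arrays of Treg from mice given an anti-DR3 antibody that activates the receptor and 2 from mice given an isotype control antibody. Both groups came from the strain Foxp3Luci-DTR-4(B6 Albino), and CD4 cells positive for a Foxp3-linked green fluorescent protein were sorted 4 days after injection into the peritoneum. The labels name neither the age of the mice nor whether replicates came from separate animals, so the p-values cover the spread among these 4 arrays and no more, and that spread may be technical. In a bulk sample a larger share of dividing cells and more RNA per cell cannot be told apart.

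Cells build purine rings stepwise on phosphoribosyl pyrophosphate, the activated ribose, and build the pyrimidine ring before ribose is attached. Folate enzymes supply carbon units for both the purine ring and the methyl group of thymidylate. Ribonucleotide reductase then turns ribonucleotides into the deoxynucleotides from which DNA is made, while salvage kinases recover free nucleosides. A T cell that leaves the resting state is known to need these pathways, and Rrm2, Tyms and Tk1 are textbook genes of S phase, when DNA is copied.

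After anti-DR3, 4 of the 31 enzyme genes tested rose and 0 fell in limma at an adjusted p of 0.05, and the 4 were Rrm2, Tk1, Rrm1 and Dck. All 4 act on deoxynucleotides, where 4 of 10 genes passed. In limma 0 of 8 purine, 0 of 6 pyrimidine and 0 of 5 folate genes passed (unadjusted p under 0.05 for 2, 2 and 1). Of the 12114 genes tested on the array, 4.49% rose and 1.47% fell, which makes 5.96% in either direction, and 26.1% lay under an unadjusted p of 0.05. The difference between the steps was not tested. The median log2 difference, anti-DR3 minus control antibody, was 0.36 for deoxynucleotide, -0.08 for purine, -0.11 for pyrimidine and -0.10 for folate genes, against 0.01 for all genes tested.

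The calls depended on having all 4 arrays, for the members as for all genes tested. Limma called 0 members when anti-DR3 replicate 1 was left out, 0 when it was anti-DR3 replicate 2, 0 when it was control antibody replicate 1 and 1, Rrm2, when it was control antibody replicate 2. An ordinary linear model without moderation of the variances called 0 of the 31, with 9 under an unadjusted p of 0.05. It also called 0 of the 12114 genes tested, with 2087 under that unadjusted p. The folate median was -0.036 without anti-DR3 replicate 1, and -0.028 where control antibody replicate 1 was left out. The purine median was -0.046 without anti-DR3 replicate 2. Limited to genes above the 75th percentile on at least 2 of 4 arrays, which left out Mthfd1 and Shmt1, the folate median was 0.018.

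**Figure D1:**
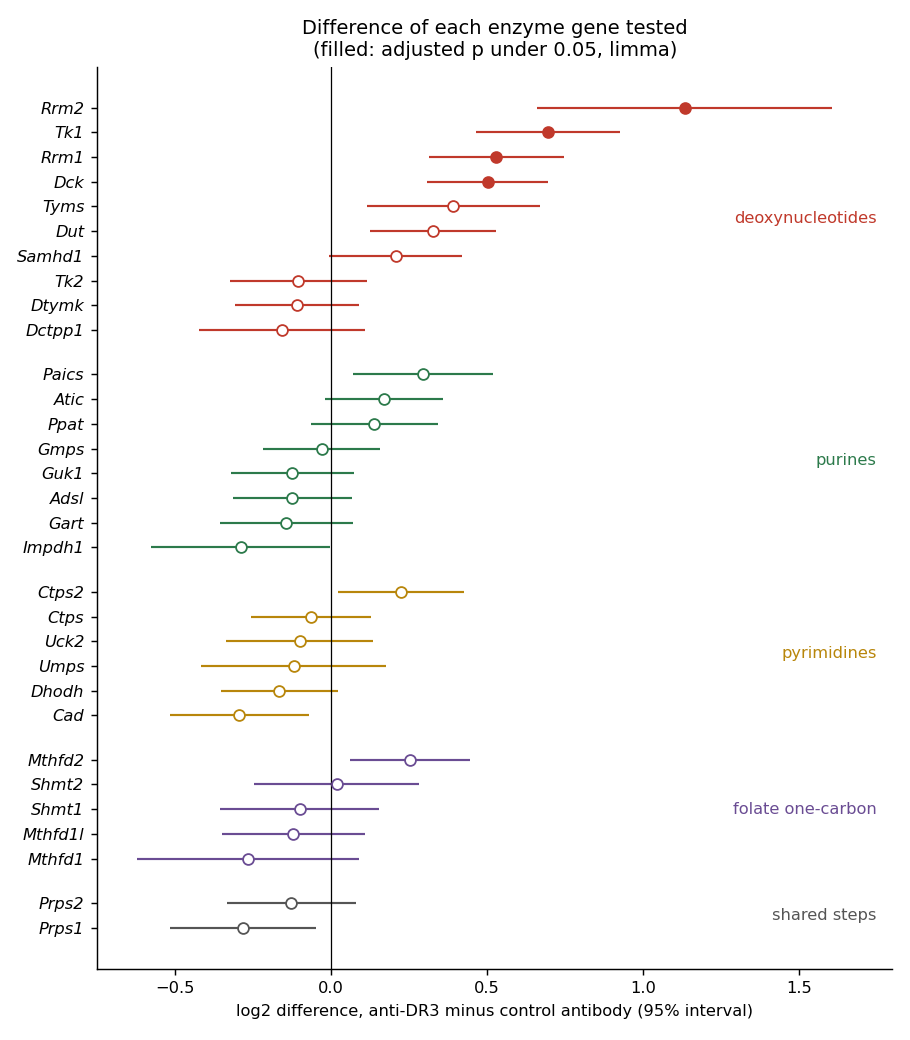
Log2 difference (anti-DR3 minus control antibody) of the 31 enzyme genes tested, with the 95% interval of the limma fit, by step. Filled points passed an adjusted p of 0.05, and the 4 filled points are Rrm2, Tk1, Rrm1 and Dck among the deoxynucleotide genes.

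To show the starting regions of the genes that rose, the 120 bases before the annotated start of each are given below from RefSeq (GRCm38.p6), 5′ to 3′ on the strand of the gene. Capitals mark CCAAT, the letters bound by the factor NF-Y. The regions are chr11:117826015-117826134 on the minus strand (Tk1), chr5:88764893-88765012 on the plus strand (Dck), chr7:102441575-102441694 on the plus strand (Rrm1) and chr12:24708134-24708253 on the plus strand (Rrm2).
Tk1: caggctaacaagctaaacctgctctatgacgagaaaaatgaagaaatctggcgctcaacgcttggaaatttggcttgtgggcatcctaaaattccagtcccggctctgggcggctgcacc
Dck: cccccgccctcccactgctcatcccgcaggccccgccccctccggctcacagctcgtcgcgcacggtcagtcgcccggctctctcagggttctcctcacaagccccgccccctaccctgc
Rrm1: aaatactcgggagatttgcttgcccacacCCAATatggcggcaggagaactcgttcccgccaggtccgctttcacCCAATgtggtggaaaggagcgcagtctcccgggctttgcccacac
Rrm2: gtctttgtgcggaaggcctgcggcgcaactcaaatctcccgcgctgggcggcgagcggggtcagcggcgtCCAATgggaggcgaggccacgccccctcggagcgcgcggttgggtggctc

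The genes of both ribonucleotide reductase subunits hold CCAAT here, 2 copies before Rrm1 and 1 before Rrm2, and the stretches before Tk1 and Dck hold none. In the windows from 250 bases before to 50 after the start, read on both strands, CCAAT lay in 2 of the 4 genes that rose and in 12 of the other 26 tested genes with a window, against 37.4% of all 32851 windows. The letters TTTNGCGC (an E2F motif) lay in 0 of 32 members and in 1.38% of windows. No other form of the E2F motif was searched, so E2F sites of other letters would be missed. CACGTG (the E-box) lay in 6 of 32 members and in 7.15% of windows, and TGATGNAA (an ATF4 composite motif) in 1 of 32, Prps1, and in 3.97% of windows. These are matches of letters, not measured binding, and no pair of these motifs overlapped in the stretches printed.

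Ribonucleotide reductase, which makes deoxynucleotides from ribonucleotides, rose in both subunits. Rrm2, the gene of the small subunit that carries the tyrosyl radical, had log2 intensities of 6.79 and 7.08 after anti-DR3, against 5.53 and 6.07 after control antibody. It rose 2.19-fold, a log2 difference of 1.13 ± 0.19 (SE, with n = 2 arrays in each group) (adjusted p = 0.0321, limma), the largest difference among the members tested. Its control arrays stood 0.54 apart, the widest gap within a group among the members, yet the groups did not overlap. Such separation was common, seen in 56.1% of all genes tested and on the higher side in 31.6%. Without 1 array the difference lay between 0.86 and 1.40. A second, dim probe set of Rrm2 gave 0.23.

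Rrm1, the gene of the large catalytic subunit, had log2 intensities of 8.24 and 8.10 after anti-DR3, against 7.67 and 7.60 after control antibody. Both anti-DR3 arrays were higher than both control arrays. The rise was 1.44-fold, or 0.53 ± 0.089 on the log2 scale (adjusted p = 0.0305, limma), and without 1 array the difference lay between 0.46 and 0.60. Rrm2b, the gene of the alternative small subunit induced by p53, is not among the members and differed by -0.01 (adjusted p = 0.979, limma).

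Both cytosolic salvage kinases of deoxynucleosides rose. Tk1, the thymidine kinase of dividing cells, had log2 intensities of 7.07 and 7.23 after anti-DR3, against 6.41 and 6.50 after control antibody. Its difference was 0.69 ± 0.094, or 1.62-fold (adjusted p = 0.0198, limma). Dck, the deoxycytidine kinase, which also accepts deoxyadenosine and deoxyguanosine, had 8.52 and 8.50 after anti-DR3, against 7.97 and 8.05 after control antibody. Its difference was 0.50 ± 0.080, or 1.42-fold (adjusted p = 0.0279, limma). In both genes the groups did not overlap, as in 56.1% of all genes tested. Without 1 array the difference stayed between 0.61 and 0.78 for Tk1 and between 0.46 and 0.54 for Dck.

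**Figure D2:**
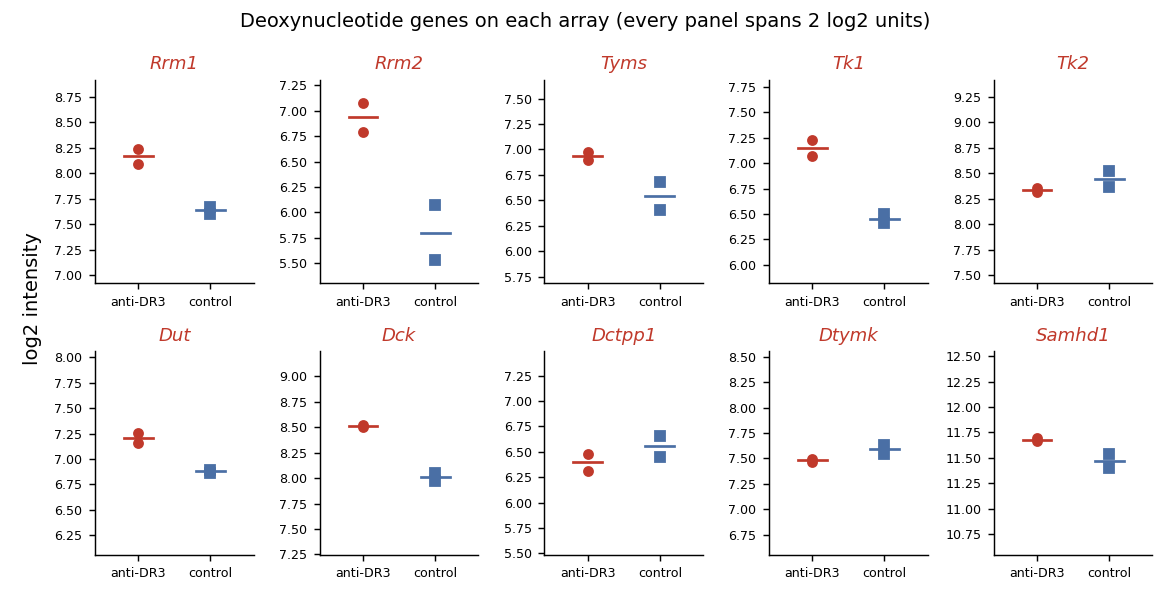
Log2 intensity of the 10 deoxynucleotide genes on each array, anti-DR3 (circles, left) and control antibody (squares, right), with a line at each group mean and the same span of 2 log2 units in every panel. In 7 genes, among them Rrm2, Tk1, Rrm1 and Dck, both anti-DR3 arrays are higher than both control arrays. In 2, Tk2 and Dtymk, both are lower, and in 1, Dctpp1, the groups overlap. Over all genes tested, 31.6% are higher and 24.6% lower in this way. Tk2, Dtymk and Dctpp1 have differences between -0.16 and -0.11.

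The genes of the thymidylate route did not pass. Tyms, the thymidylate synthase, had log2 intensities of 6.89 and 6.97 after anti-DR3, against 6.40 and 6.68 after control antibody, a difference of 0.39 ± 0.11 (adjusted p = 0.0992, limma). Dut, the dUTPase that keeps uracil out of DNA and supplies the substrate of thymidylate synthase, had 7.25 and 7.16 after anti-DR3, against 6.89 and 6.86 after control antibody, a difference of 0.33 ± 0.082 (adjusted p = 0.0746, limma). The groups of both genes did not overlap. Both passed when the genes tested were limited to those above the 75th percentile of the array on at least 2 of 4 arrays. This filter called 7 of 24 members, all higher. A gene brighter after anti-DR3, as Tyms, Rrm2 and Tk1 were, could enter through those arrays alone. The passes under it are therefore no separate support. That filter called 20.0% of its 6406 genes, 14.8% of them on the higher side. A dim probe set of Dut gave -0.03. Dtymk, the next kinase of the route, differed by -0.11 (95% interval -0.31 to 0.09).

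The remaining deoxynucleotide genes cleave nucleotides or act in mitochondria. Samhd1, which breaks deoxynucleoside triphosphates down, had log2 intensities of 11.67 and 11.69 after anti-DR3, against 11.40 and 11.54 after control antibody. The groups did not overlap, and the difference of 0.21 ± 0.087 did not pass (adjusted p = 0.200, limma). Dctpp1, a pyrophosphatase that removes dCTP and its modified forms, differed by -0.16 (95% interval -0.42 to 0.11), and its arrays overlapped. Tk2, the mitochondrial thymidine kinase, had 8.35 and 8.32 after anti-DR3, against 8.52 and 8.36 after control antibody, a difference of -0.11 (95% interval -0.32 to 0.11).

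In the purine pathway 0 of 8 genes passed in limma, 3 had a positive and 5 a negative difference, and in each of the 8 the groups did not overlap. Among all genes tested the groups did not overlap in 56.1%, on the higher side in 31.6% and on the lower in 24.6%, and 52.4% of differences were positive. Ppat, which commits ribose phosphate to purine synthesis, had log2 intensities of 7.51 and 7.62 after anti-DR3, against 7.41 and 7.45 after control antibody (difference 0.14, 95% interval -0.07 to 0.34). Paics, the bifunctional enzyme for a middle pair of steps and a neighbour of Ppat on the chromosome, had 8.10 and 8.07 after anti-DR3, against 7.88 and 7.71 after control antibody. Its difference of 0.29 ± 0.092 was the highest of the class (adjusted p = 0.114, limma). Atic, the bifunctional enzyme that closes the ring, had 7.80 and 7.83 after anti-DR3, against 7.66 and 7.63 after control antibody, a difference of 0.17 ± 0.077 (adjusted p = 0.232, limma).

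Genes of the steps between these had negative differences. Gart, the trifunctional enzyme of early steps, had log2 intensities of 7.17 and 7.03 after anti-DR3, against 7.25 and 7.24 after control antibody, a difference of -0.14 (95% interval -0.36 to 0.07). Its other probe sets gave 0.03 and, for a dim one, -0.09. Adsl, the adenylosuccinate lyase used in ring synthesis and again in making AMP, differed by -0.12 (95% interval -0.31 to 0.07). Genes of the same route to inosine monophosphate thus had differences of both signs, and 0 of those 5 passed.

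Of the guanine branch, Impdh1, an isoform of the dehydrogenase that commits inosine monophosphate to guanine nucleotides, had log2 intensities of 6.59 and 6.34 after anti-DR3, against 6.84 and 6.67 after control antibody. Its difference of -0.29 ± 0.12 did not pass (adjusted p = 0.189, limma). Gmps, the GMP synthetase, had 8.53 and 8.50 after anti-DR3, against 8.54 and 8.55 after control antibody, a difference of -0.03 with a 95% interval of -0.22 to 0.16. Guk1, the guanylate kinase, differed by -0.12 (95% interval -0.32 to 0.07).

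**Figure D3:**
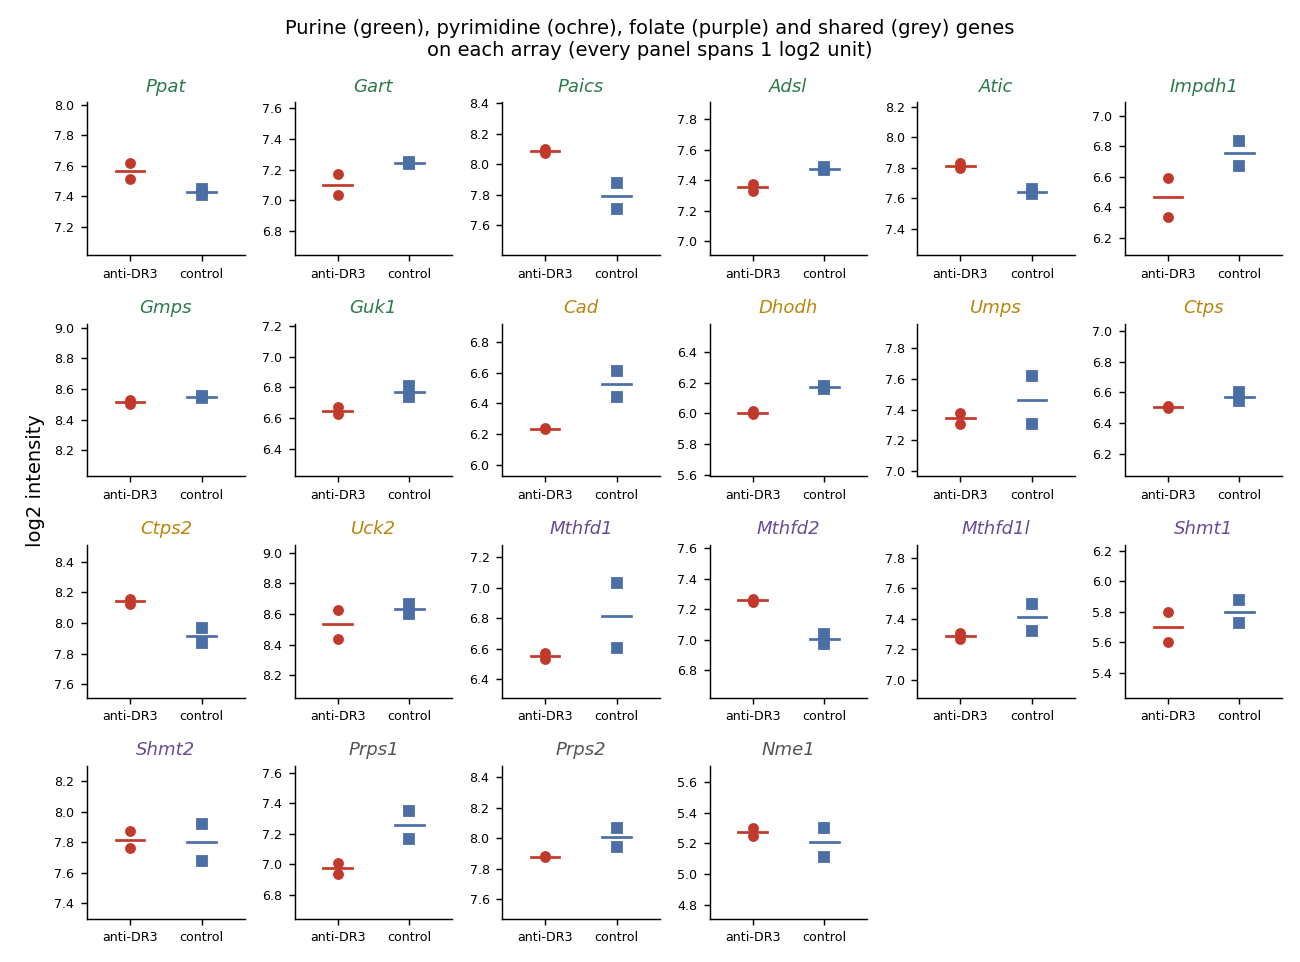
Log2 intensity of the 22 purine, pyrimidine, folate and shared genes with a probe set on each array, anti-DR3 (circles, left) and control antibody (squares, right), with a line at each group mean and the same span of 1 log2 unit in every panel. Of the 21 tested, 5 are higher on both anti-DR3 arrays than on both control arrays and 12 are lower. Among all genes tested these shares are 31.6% and 24.6%. Paics, Atic, Ctps2 and Mthfd2 are among the higher and Cad, Dhodh and Prps1 among the lower, and 0 of the 21 passed the threshold.

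In the pyrimidine pathway 0 of 6 genes passed in limma and 5 of 6 had a negative difference. Cad, the trifunctional enzyme that starts the ring, had log2 intensities of 6.24 and 6.23 after anti-DR3, against 6.61 and 6.44 after control antibody. Both anti-DR3 arrays lay below both control arrays, and the difference of -0.29 ± 0.091 was the lowest among the members tested (adjusted p = 0.113, limma). Dhodh, the mitochondrial dehydrogenase that forms orotate, had 6.013 and 5.998 after anti-DR3, against 6.179 and 6.163 after control antibody, a difference of -0.17 ± 0.077 (adjusted p = 0.239, limma). Umps, which turns orotate into UMP, had 7.38 and 7.31 after anti-DR3, against 7.62 and 7.30 after control antibody, and these groups overlapped.

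The genes of the CTP synthases had differences of opposite sign. Ctps2 had log2 intensities of 8.12 and 8.16 after anti-DR3, against 7.87 and 7.97 after control antibody, a difference of 0.23 ± 0.082 (adjusted p = 0.157, limma). Ctps, the isoform that human T cells are known to need in order to expand, had 6.50 and 6.51 after anti-DR3, against 6.60 and 6.54 after control antibody, a difference of -0.06 (95% interval -0.26 to 0.13). Uck2, the uridine and cytidine kinase of salvage, differed by -0.10 (95% interval -0.34 to 0.14), with 0.01 at a second, dimmer probe set.

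Of the folate enzymes 0 of 5 passed in limma. Mthfd2, the mitochondrial dehydrogenase and cyclohydrolase that is known to be high in dividing and embryonic cells, had log2 intensities of 7.27 and 7.25 after anti-DR3, against 7.04 and 6.97 after control antibody. The groups did not overlap, and its difference was 0.25 ± 0.079 (adjusted p = 0.115, limma). It passed under the stricter filter on dim genes (adjusted p = 0.0479, limma). Mthfd1l, the mitochondrial synthetase that releases formate, had 7.31 and 7.27 after anti-DR3, against 7.32 and 7.50 after control antibody, a difference of -0.12 (95% interval -0.35 to 0.11). Shmt2, which moves a carbon from serine onto folate in mitochondria, had 7.87 and 7.76 after anti-DR3, against 7.92 and 7.68 after control antibody, a difference of 0.02 (95% interval -0.25 to 0.28). These arrays overlapped, and the sign of Shmt2 turned when arrays were centred on the median.

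In the cytosol, Mthfd1, the trifunctional folate enzyme, had log2 intensities of 6.57 and 6.53 after anti-DR3, against 7.03 and 6.61 after control antibody. The difference of -0.27 ± 0.14 (adjusted p = 0.307, limma) rested largely on control antibody replicate 1, and without that array it was -0.05. Shmt1, the cytosolic counterpart of Shmt2, had 5.60 and 5.80 after anti-DR3, against 5.87 and 5.73 after control antibody. These arrays overlapped.

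The steps that purines and pyrimidines share gave 0 passes among 2 genes tested in limma, where 1, Prps1, had an unadjusted p under 0.05. Prps1, which makes phosphoribosyl pyrophosphate, had log2 intensities of 6.94 and 7.01 after anti-DR3, against 7.16 and 7.35 after control antibody. The groups did not overlap, and the difference was -0.28 ± 0.095 (adjusted p = 0.136, limma). Prps2, its isoform, had 7.88 and 7.88 after anti-DR3, against 8.07 and 7.95 after control antibody, a difference of -0.13 ± 0.084 (adjusted p = 0.398, limma). Nme1, a nucleoside diphosphate kinase, was too dim to be tested, at 5.30 and 5.25 after anti-DR3, against 5.11 and 5.30 after control antibody.

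**Figure D4:**
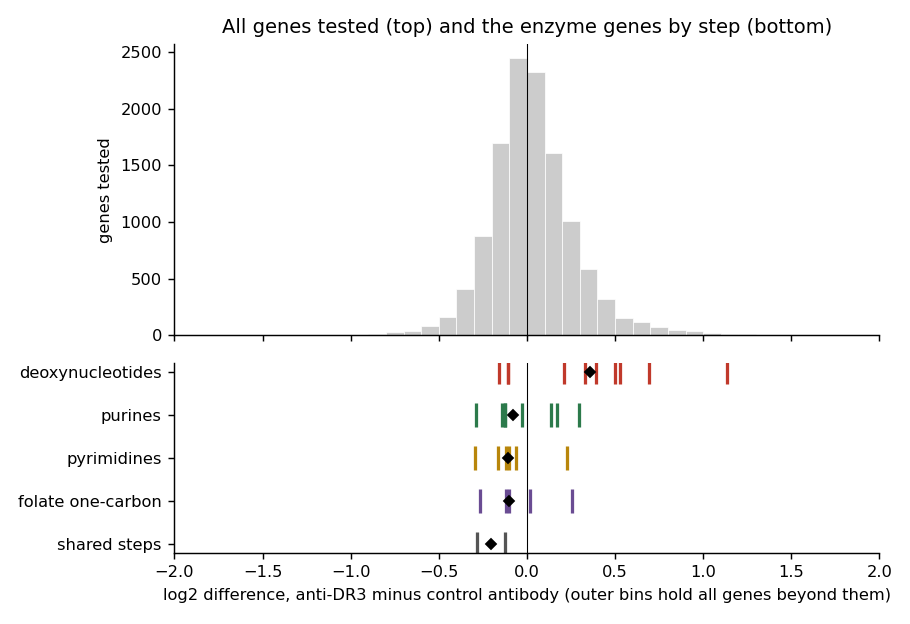
Log2 difference (anti-DR3 minus control antibody) of the 12114 genes tested as a histogram (top) and of the 31 enzyme genes as ticks by step, with a diamond at each median (bottom). The deoxynucleotide median is 0.36 and those of the purine, pyrimidine and folate genes lie between -0.11 and -0.08.

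Pairs of enzymes for related reactions were compared by the log2 ratio of the pair on each array, in 5 pairs. The log2 ratio of Tk1 to Tk2 differed by 0.80 (anti-DR3 minus control antibody), and that of mitochondrial Mthfd2 to cytosolic Mthfd1 by 0.52. The ratio of Ctps to Ctps2 differed by -0.29. In these 3 pairs the groups did not overlap, each with an exact permutation p of 0.333 (two-sided, adjusted p = 0.556), the smallest that this test can give with 2 arrays against 2, so it cannot pass 0.05 here. The ratio of Prps1 to Prps2 differed by -0.15 and that of Shmt2 to Shmt1 by 0.12, both with overlapping arrays (exact permutation p = 0.667, adjusted p = 0.667). Without control antibody replicate 2 the Prps1 to Prps2 difference was -0.0020, and without anti-DR3 replicate 1 that of Shmt2 to Shmt1 was -0.032. The ratio of Mthfd2 to Mthfd1 carries the gap between the control arrays of Mthfd1, and without control antibody replicate 1 its difference was 0.34.

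**Figure D5:**
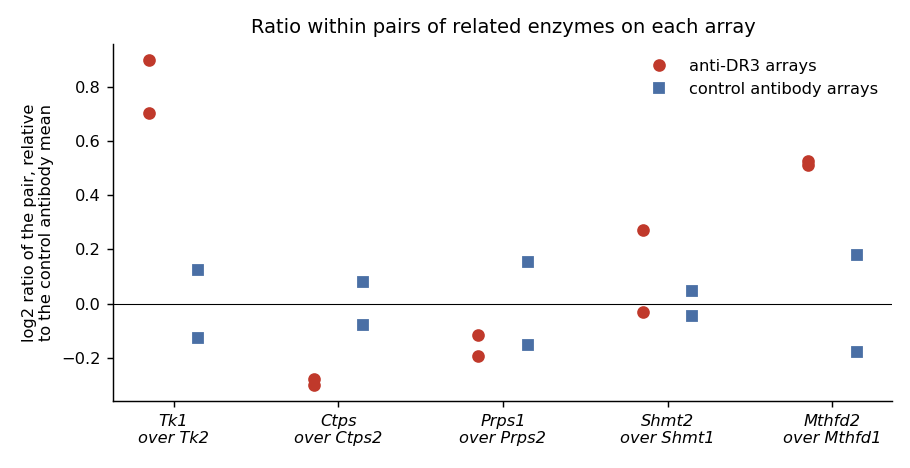
Log2 ratio of 5 enzyme pairs on each array, relative to the mean of the control antibody arrays, with anti-DR3 arrays as circles (left) and control antibody arrays as squares (right). The Tk1 to Tk2 ratio lies 0.70 and 0.90 above the control mean on the anti-DR3 arrays, and the Prps1 to Prps2 and Shmt2 to Shmt1 ratios overlap.

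Other genes of the pathway, outside the 34, were counted from lists, here and below. Over all genes tested 4.49% rose and 1.47% fell. Of 21 salvage and interconversion genes tested 2 rose and 0 fell, and the median log2 difference was -0.01. Hprt, which salvages hypoxanthine and guanine, had log2 intensities of 8.78 and 8.78 after anti-DR3, against 8.39 and 8.36 after control antibody, and rose by 0.40 ± 0.077 (adjusted p = 0.0424, limma). Hprt did not pass with the replicate number as a block (adjusted p = 0.0655), with the arrays centred on the median (0.0634) or with quantile normalization (0.0571, limma for all 3). The other was Cmpk2, a mitochondrial nucleotide kinase that interferon also induces, at 0.66 ± 0.086 (adjusted p = 0.0177, limma).

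Of 14 folate uptake and cycle genes tested 1 rose and 0 fell, beside 4.49% and 1.47% of all genes tested. The median was -0.16, and 1 gene passed. The gene that rose was Ggh, which trims glutamate from stored folates. Its log2 intensities were 6.82 and 6.83 after anti-DR3, against 6.28 and 6.10 after control antibody (difference 0.63 ± 0.093, adjusted p = 0.0239, limma). Fpgs, which adds the glutamates, had 5.23 and 5.25 after anti-DR3, against 5.57 and 5.61 after control antibody, and did not pass (difference -0.35 ± 0.077, adjusted p = 0.0573, limma). It was singled out after its values were seen, and only its control arrays lay above the array median.

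Of 13 regulators known from the literature of these genes 4 rose and 0 fell, and the median was 0.13. E2f8, a repressor of the E2F family, rose by 1.25 ± 0.093 (adjusted p = 0.00814), E2f3 by 0.71 ± 0.12 (adjusted p = 0.0293), E2f2 by 0.58 ± 0.087 (adjusted p = 0.0254) and Tfdp1, the partner of E2F factors, by 0.47 ± 0.080 (adjusted p = 0.0318, limma for all 4). E2f8 and E2f3 exceeded the array median on the anti-DR3 arrays alone and entered the test through them. Myc, an activator of many nucleotide synthesis genes, had log2 intensities of 8.08 and 8.01 after anti-DR3, against 8.51 and 8.27 after control antibody. Both anti-DR3 arrays were lower, and the difference of -0.35 ± 0.10 did not pass (adjusted p = 0.107, limma). Myc too was singled out after its values were seen.

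Of 12 genes of cell division tested 5 rose and 0 fell. The rises were 1.84 for Ccna2 and 1.54 for Ccnb2, both cyclins, 1.78 for Mki67, a marker of dividing cells, 1.53 for Top2a, a DNA topoisomerase, and 0.64 for Mcm6, a helicase subunit (log2, adjusted p between 0.00606 and 0.0144, limma). Ccna2 exceeded the array median on the anti-DR3 arrays alone and entered the test through them. The other 7 did not pass. Of these, Cdk1 differed by 0.47, Mcm5 by 0.36, Mcm3 by 0.34, Mcm7 by 0.22 and Mcm4 by 0.16, while Pcna, the sliding clamp, differed by -0.09 (95% interval -0.29 to 0.10) and Mcm2 by -0.07 (95% interval -0.26 to 0.12). The summed linear intensity of the list was 3879 and 3909 after anti-DR3, against 2742 and 2688 after control antibody. The part of cell division in the enzyme differences was not tested.

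The label of the sorted cells was checked against markers, Foxp3 among them, and some markers of other cells also changed. All 8 Treg markers were bright enough to be tested, with 1 rise (Ikzf2) and 2 falls (Il2ra and Lrrc32). Of the CD8 T cell markers Cd8b1 rose and Cd8a was dim (summed linear intensity 224 and 240 after anti-DR3, against 173 and 168 after control antibody). Of 4 monocyte and macrophage markers tested 1 rose, Csf1r, and Adgre1 was dim (summed over all 5, 312 and 346 after anti-DR3, against 260 and 294 after control antibody). Itgam, which did not pass, exceeded the array median on the anti-DR3 arrays alone and entered the test through them. Of the 4 tested, 2 were higher on both anti-DR3 arrays than on both control arrays, and 2 overlapped. The dim Adgre1 was lower on both anti-DR3 arrays (log2 4.68 and 4.72) than on both control arrays (5.06 and 5.01). With the replicate block Cd8b1 (adjusted p = 0.0578) and Csf1r (0.0598) did not pass, nor with median centring (0.0614 and 0.0627), and under quantile normalization Cd8b1 (0.0510) and Il2ra (0.0565, limma for all) did not. B cell markers gave 0 passes among 2 tested in limma (unadjusted p under 0.05 for 0), and Cd79a, Ms4a1 and Pax5 were dim (235 and 228 after anti-DR3, against 220 and 217 after control antibody). The 3 natural killer and 3 neutrophil markers were dim, plasma cell (2 tested) and dendritic cell (1 tested) markers gave 0 passes in limma (unadjusted p under 0.05 for 0), and the 1 platelet marker measured was dim. The part of these cells in the enzyme differences was not tested.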

How the data were processed

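Values were 1 linear intensity for each probe set and array, deposited by the authors after RMA (background correction, normalization between arrays, summary of probes) per the submitters' processing notes. Software version and genome build: not given in the sources used here. That the scale is linear was judged from the values, whose array medians were 40.2 and 40.4 after anti-DR3, against 41.6 and 42.0 after control antibody. A shift common to every gene would be lost in such normalization. The number of arrays limits the precision.

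Of 41345 probe sets 23521 had 1 gene symbol, 1814 several and 16010 none listed, and those with 1 were used. The brightest probe set stood for a gene, and genes above the array median on at least 2 of 4 arrays were tested (12114, with 10066 dim). Log2 values went into limma 3.58.1 (R 4.3.3; lmFit, then eBayes, two-sided) with Benjamini-Hochberg adjustment over those genes and a threshold of 0.05, with 2 residual and 3.94 prior degrees of freedom. Limma called 722 genes, 544 higher and 178 lower after anti-DR3. Centring each array on the median of the genes tested made this 348 and 243. Enzyme ratios were compared with exact permutation tests (scipy 1.17.1), and 5 of 6 planned pairs could be run, since Impdh2 had no probe set. The code was tested on simulated data. Arrays correlated at 0.992 and 0.989 within groups and at 0.975 to 0.980 between groups. RefSeq tables (GRCm38.p6) gave promoter windows for 32 of 34 members.

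The members, lists and motifs were chosen with earlier results of these data known. Every member is named, with values per array for those past the threshold, the 3 of each step with the largest moderated statistic, and others by role. Other lists name up to 4 genes past the threshold; of cell division genes every one tested is named. Mcm6, the genes of that list that did not pass, Rrm2b, Fpgs and Myc were named after their values were seen. Alternatives covered the replicate number, each array left out, the filter, normalization, the variance model, array weights, the probe set and the threshold.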

Additional observations from a re-analysis of the deposited data

How the results depend on the processing

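With 1 array removed, which leaves a lone array whose spread is taken from the other group, limma called 0 to 1 members, 0 to 1 higher, and 0 to 312 genes, 0 to 245 higher and 0 to 67 lower. The median difference then lay between 0.30 and 0.40 for deoxynucleotide genes, between -0.093 and -0.046 for purine genes, between -0.16 and -0.077 for pyrimidine genes and between -0.10 and -0.028 for folate genes. Umps lay between -0.28 and 0.038 and Shmt2 between -0.10 and 0.14, so both turned in sign. Without the filter on dim genes 0 members passed, 0 higher (10 at an unadjusted p of 0.05), and 14 genes, 14 higher and 0 lower. The stricter filter gave 7 members, 7 higher, and 1281 genes, 951 higher and 330 lower, with medians of 0.39 (deoxynucleotide), -0.030 (purine) and 0.018 (folate). A trended robust prior gave 1444 genes, 1082 higher and 362 lower, and an adjusted p under 0.10 gave 1689, 1171 higher and 518 lower. The ordinary linear model gave 0 members, 0 higher, and 0 genes, 0 higher and 0 lower (2087 unadjusted). Every probe set on its own also gave 0 of each (2411 unadjusted). Centring each array on the median of the genes tested gave 348 higher genes and -0.042 for Shmt2. The medians were then 0.30 (deoxynucleotide), -0.14 (purine), -0.17 (pyrimidine) and -0.16 (folate). Quantile normalization gave 0.33 (deoxynucleotide), -0.11 (purine) and -0.040 for Shmt2. The mean of all probe sets gave 0.21 (deoxynucleotide; Rrm2 is too dim there) and -0.047 (purine). What lies behind these shifts was not tested.

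Over the 31 members and their alternatives, sign and call were kept in 390 values, the call was lost in 27 and gained in 4, and the sign turned in 5. Most of the 390 are genes that were never called. All 27 losses fell on the 4 called genes, since only a called gene can lose its call. Dck, Rrm1 and Tk1 each kept the call in 7 of 14 alternatives, and Rrm2 in 7 of 13. Titles number the replicates in both groups without saying what a number shares. With the replicate block limma called 563 genes, 430 higher and 133 lower, and the same 4 members. The correlation of replicate differences between the groups was 0.051 over genes, from 2 pairs, so pairing could not be judged. With 2 arrays in each group, brightness over background was judged by the array median alone.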

Other observations

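Serine synthesis, which feeds carbon into the folate cycle, was looked at as a further supply of the pathway. Of 15 serine, glycine and methionine supply genes tested 0 passed in limma (unadjusted p under 0.05 for 2), and their median log2 difference was 0.09. Psat1, the aminotransferase of serine synthesis, had log2 intensities of 6.55 and 6.76 after anti-DR3, against 6.36 and 6.22 after control antibody, and its difference of 0.37 ± 0.11 did not pass (adjusted p = 0.0990, limma). Phgdh, which starts that route, had 7.13 and 6.66 after anti-DR3, against 6.65 and 6.18 after control antibody, a difference of 0.48 ± 0.21 (adjusted p = 0.213, limma). Its replicates lay as far apart as its groups. Slc38a2, a carrier of small neutral amino acids, had 9.94 and 9.91 after anti-DR3, against 10.23 and 10.13 after control antibody, a difference of -0.25 ± 0.083 (adjusted p = 0.128, limma). These genes were chosen after their values were seen.

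Of 12 genes of nucleotide breakdown and pool cleaning tested 0 passed in limma (unadjusted p under 0.05 for 2), and their median was 0.09. Nt5e, the ectoenzyme CD73 that makes adenosine, had log2 intensities of 9.50 and 9.56 after anti-DR3, against 9.18 and 9.25 after control antibody. Both anti-DR3 arrays were higher, and the difference of 0.32 ± 0.081 did not pass (adjusted p = 0.0768, limma). It too was chosen after its values were seen.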
